A study of Mus musculus with 8 samples.

Results

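Collagen genes were taken as every protein-coding gene of the deposited expression table whose Ensembl symbol has the form Col, a type number, the letter a and a chain number. This rule was met by 44 of the 30387 genes listed, and it reads symbols and gene types only. They comprised 11 fibrillar collagen genes, 6 genes of type IV collagen, the network collagen of basement membranes, 2 multiplexin genes, 6 type VI genes, 9 genes of fibril-associated collagens with interrupted triple helices (FACIT), 3 genes of types VIII and X, the type VII gene, 4 transmembrane collagen genes and 2 others. Over the 8 libraries 37 of the 44 averaged 5 or more normalized counts, and these were tested. They were 9 of the 11 fibrillar genes, 5 of the 9 FACIT genes, 1 of the 2 others and every gene of the remaining classes.

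The samples were white adipocytes of the epididymal fat depot, from wild-type littermates (WT) and from mice designated Ad-Yap/Taz-KO (KO). The KO mice carried Adipoq-Cre with floxed Yap and Taz alleles, so that recombination follows the adiponectin promoter and is constitutive. Mice of both genotypes received normal chow (NC) or a high-fat diet (HFD) for 4 weeks, and each of the 4 groups had 2 libraries. The sources differ on the age at which feeding began, which is week 5 in the series' design text and 6 weeks in the general methods for these mice. YAP and TAZ, the latter encoded by Wwtr1, are coactivators that act on gene expression through TEAD transcription factors, and the design asks how their loss from adipocytes alters gene expression on either diet.

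Collagens are triple-helical proteins of the extracellular matrix. Fibrillar collagens, chiefly types I, III and V, assemble into the tensile fibrils of interstitial matrix, whereas type IV collagen forms a sheet-like network in the basement membrane that surrounds each adipocyte and the vessels. Type VI collagen forms beaded microfilaments next to cells and is abundant in adipose tissue, where fibroblasts and progenitors are also major producers of fibrillar collagen.

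The values, here called normalized counts, were read counts per gene that had been divided by a size factor of the library and rounded. From the step between low values, 1 read was worth 0.795 to 1.13 normalized counts and the libraries held 14.0 to 22.3 M reads on genes (M, mega). Wwtr1 had 5594 and 4743 normalized counts in WT on NC, 2441 and 1957 in KO on NC, 7121 and 6807 in WT on HFD, and 2060 and 2707 in KO on HFD. Yap1 had 2776 and 2717, 1669 and 1699, 2468 and 2333, and 1549 and 2068 in the same order. Both genes were lower in every KO library than in every WT library of the same diet, although Yap1 did not pass the test on HFD (log2 fold change -0.42, adjusted p = 0.059). The 2 WT HFD libraries stood apart from the other pairs, because among genes with 1000 to 5000 reads their squared difference was 6.19 times the Poisson expectation, against 35.3 to 92.6 in the other 3 groups, while among genes with 5 to 20 reads it was 4.88 against 4.68 to 6.46. Separate mice are given for each group, but these values cannot tell whether the 2 libraries are repeats of 1 RNA sample, so that the n of 2 in this group, and with it every p that rests on the group, is in doubt. Their values are therefore given one by one with no SD. The counts of called collagen genes, with the calls kept or lost, are also given with this pair averaged to 1 value per gene. Results of single processing, receptor and marker genes are given without that averaging.

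Differences were estimated with limma on log2(normalized count + 1) of 18800 genes in 1 fit of the 4 group means. Called genes had an adjusted p (Benjamini-Hochberg, over all these genes) no larger than 0.05 together with a log2 fold change no smaller than 0.59 in size. With 2 libraries per group an exact permutation test of a single gene cannot give a two-sided p under 0.333, so that every p given here relies on the spread shared across genes. KO against WT on HFD, HFD against NC in WT and the interaction of genotype and diet (the KO-WT difference on HFD minus that on NC) all use the WT HFD libraries, and their calls are not independent of each other.

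The level per kb of exon was highest for Col4a1 in 7 of the 8 libraries and for Col3a1 in replicate 2 of KO on HFD. Averaged over the 8 libraries, Col4a1 had 5497 and Col4a2 had 4021 normalized counts per kb, followed by Col3a1 with 2411, Col6a1 with 2170, Col15a1 with 2166, Col5a3 with 1402 and Col1a1 with 1289, an order that holds for this mean and not for each group. All 44 collagen genes together took 0.919% to 1.48% of the normalized counts of a library. Per kb, the summed fibrillar level divided by the summed type IV level was 0.602 and 0.486 in WT on NC, 0.753 and 0.602 in KO on NC, 0.486 and 0.489 in WT on HFD, and 1.45 and 1.52 in KO on HFD. The summed type IV level thus exceeded the fibrillar level in the 6 libraries of the first 3 groups, and the order was turned in both libraries of KO on HFD. The KO HFD libraries did not overlap any other group. Exon lengths were unions over all transcript models of a gene, and they weight the genes in each sum. Without division by length, the fibrillar over type IV ratio of the summed normalized counts was 0.568 to 0.939 in those 6 libraries and 1.80 and 1.92 in KO on HFD.

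**Figure D1:**
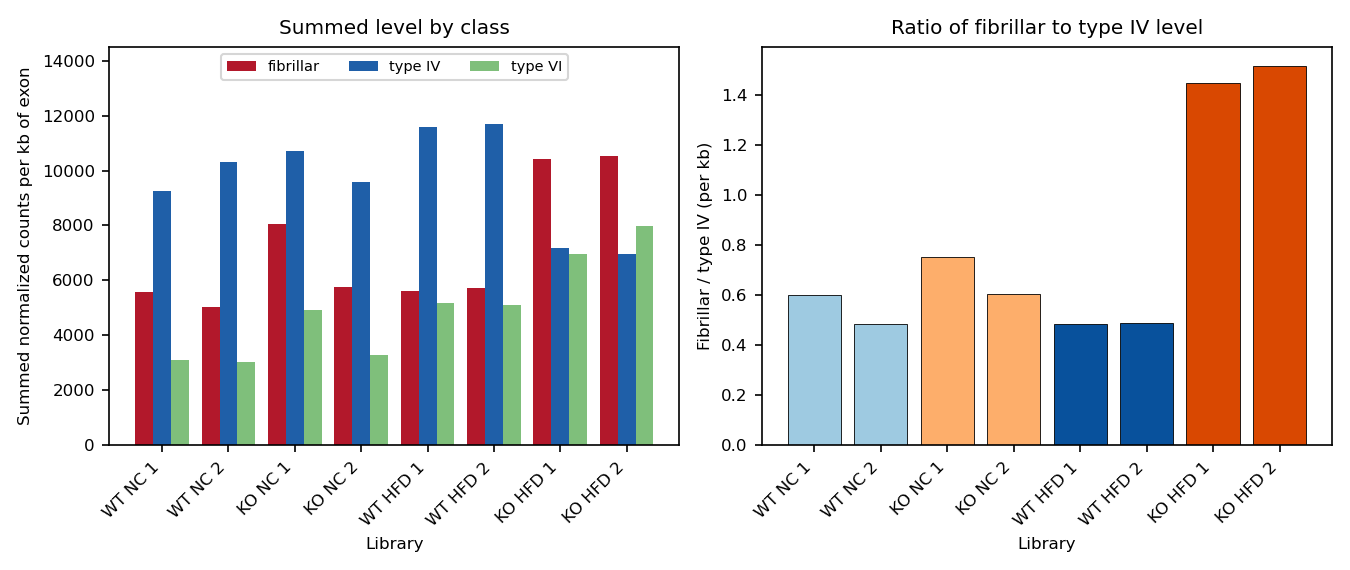
Summed normalized counts per kb of exon of the 11 fibrillar, 6 type IV and 6 type VI collagen genes in each of the 8 libraries (left, bars by class), and the fibrillar level divided by the type IV level in the same libraries (right). The ratio lies between 0.486 and 0.753 in 6 libraries and at 1.45 and 1.52 in the libraries of KO on HFD.

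On HFD, 5 of 9 tested fibrillar and 3 of 6 type VI collagen genes were called higher in KO than in WT adipocyte preparations. In the other direction 1 fibrillar and no type VI gene was called, and of 6 type IV genes 2 were called higher and 2 lower. Of all the 37 tested collagen genes 15 were called higher and 6 lower, where 17.1% of all genes tested were called higher and 15.1% lower (32.2% in all). The median log2 fold change of the collagen genes was 0.94, beside 0.09 over all genes tested. It was 0.93 with Col6a4 and Col25a1, both at 0 in the 2 WT HFD libraries, set to the level of 3 reads per library. With the WT HFD pair averaged 14 genes were called higher and 5 lower, the calls of Col14a1 (adjusted p = 0.14) and Col4a1 (adjusted p = 0.10) being lost. The libraries are from bulk RNA, in which fewer cells of a type and less RNA per cell cannot be told apart.

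Among the fibrillar genes, Col1a1 and Col1a2 encode the chains of type I collagen, the main fibril protein of interstitial matrix. Col1a1 (chr11:94936224-94953042, plus strand, GRCm38) had 4873 and 3566 normalized counts in WT on NC, 9007 and 4408 in KO on NC, 4131 and 4189 in WT on HFD, and 19039 and 18472 in KO on HFD. For Col1a2 (chr6:4504814-4541544, plus strand) the values were 6563 and 6215, 10501 and 5363, 3681 and 3917, and 17328 and 19354 in the same order. Both chains were highest in the libraries of KO on HFD, without overlap with any other group, and the KO libraries on NC overlapped the WT libraries on NC. The mean in KO on HFD was 18755.5 ± 401 normalized counts for Col1a1 and 18341 ± 1433 for Col1a2 (SD, n = 2). Between genotypes on HFD, Col1a1 was 4.51-fold higher in KO (log2 fold change 2.17, standard error 0.26, limma adjusted p = 5.6e-05). Col1a2 was 4.82-fold higher (2.27, standard error 0.24, adjusted p = 2e-05). Per kb, the ratio of Col1a1 to Col1a2 was 1.09 to 1.62 in the NC libraries and 1.81 to 2.12 in the HFD libraries, with no overlap between diets.

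Col3a1, which encodes the single chain of type III collagen and forms mixed fibrils with type I, had the highest level per kb among fibrillar genes in the 6 libraries outside WT on HFD, where Col5a3 was above it (1984 and 2007 against 1333 and 1343 normalized counts per kb). It had 20087 and 15951 normalized counts in WT on NC, 31219 and 21052 in KO on NC, 13083 and 13180 in WT on HFD, and 35507 and 39287 in KO on HFD. The KO HFD libraries were again above all others, and on HFD the gene was 2.84-fold higher in KO (log2 fold change 1.51, standard error 0.21, adjusted p = 0.00015). Relative to Col1a1, the per kb level of Col3a1 was 2.32 to 3.19 in the NC libraries, 2.10 and 2.12 in WT on HFD, and 1.25 and 1.42 in KO on HFD. Col3a1 was therefore above Col1a1 per kb in all 8 libraries and closest to it in KO on HFD. Col1a2, the other type I chain, does not enter this ratio. The promoter of Col3a1 is shown because it is the only fibrillar gene whose window held GGAATG, the core of the motif bound by TEAD factors (searched on both strands, in capitals).

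Col3a1 promoter, chr1:45311288-45311587, GRCm38.p6, plus strand: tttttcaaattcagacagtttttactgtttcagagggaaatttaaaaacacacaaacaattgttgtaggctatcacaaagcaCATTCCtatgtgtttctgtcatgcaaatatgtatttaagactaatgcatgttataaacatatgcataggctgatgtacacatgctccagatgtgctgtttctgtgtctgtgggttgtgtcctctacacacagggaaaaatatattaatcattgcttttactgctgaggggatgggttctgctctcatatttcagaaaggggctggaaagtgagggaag

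The match lies at position -168 from the annotated start on the opposite strand. GGAATG was found in 5 of 38 RefSeq promoter windows of 35 matched collagen genes (13.2%), and in 14.7% of all 32851 windows of this length, which run from 250 bases before to 50 bases after a start. A match describes the letters of the window and not a bound site. The Col1a1, Col5a2 and Col2a1 promoters were not among those matched.

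Type V collagen genes, whose product lies within type I fibrils and limits their diameter, were not called higher in KO on HFD. Col5a3, the type V chain with the highest level per kb except in replicate 2 of KO on HFD, had 8472 and 9002 normalized counts in WT on NC, 9377 and 9190 in KO on NC, 13508 and 13668 in WT on HFD, and 7855 and 5324 in KO on HFD. It was the 1 fibrillar gene called lower in KO on HFD, by 2.10 times (log2 fold change -1.07, standard error 0.18, adjusted p = 0.00069), a call lost with quantile normalization. Col5a1 had 5225 and 5339, 6391 and 5362, 7972 and 8759, and 7272 and 7602 normalized counts in the same order. Col5a2 had 2915 and 3142, 4352 and 4124, 3746 and 3396, and 3834 and 3829. Neither was called between genotypes on HFD, with log2 fold changes of -0.17 for Col5a1 (adjusted p = 0.41) and 0.10 for Col5a2 (adjusted p = 0.60), and the Col5a2 libraries of KO on HFD lay above both WT HFD libraries by a small margin.

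Of the less abundant fibrillar genes that were tested, 2 were called higher in KO on HFD and 1 was not called. Col27a1, a fibrillar chain known from cartilage, had 230 and 176 normalized counts in WT on NC, 411 and 211 in KO on NC, 52 and 54 in WT on HFD, and 406 and 531 in KO on HFD. Col11a2, a chain of cartilage-type fibrils, had 164 and 123, 152 and 116, 19 and 34, and 167 and 223. In both genes the WT HFD libraries were the low ones and did not overlap the other 6 libraries. On HFD Col27a1 was 8.62-fold higher in KO (log2 fold change 3.11, standard error 0.32, adjusted p = 1.6e-05) and Col11a2 7.33-fold higher (2.87, standard error 0.37, adjusted p = 0.0001). Col2a1, the main collagen of cartilage, had 384 and 320, 301 and 661, 398 and 278, and 273 and 189 normalized counts and was called in no comparison (log2 fold change on HFD -0.55, adjusted p = 0.23). Col11a1 and Col24a1 had means of 1.25 and 1.12 normalized counts over the 8 libraries and were not tested.

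**Figure D2:**
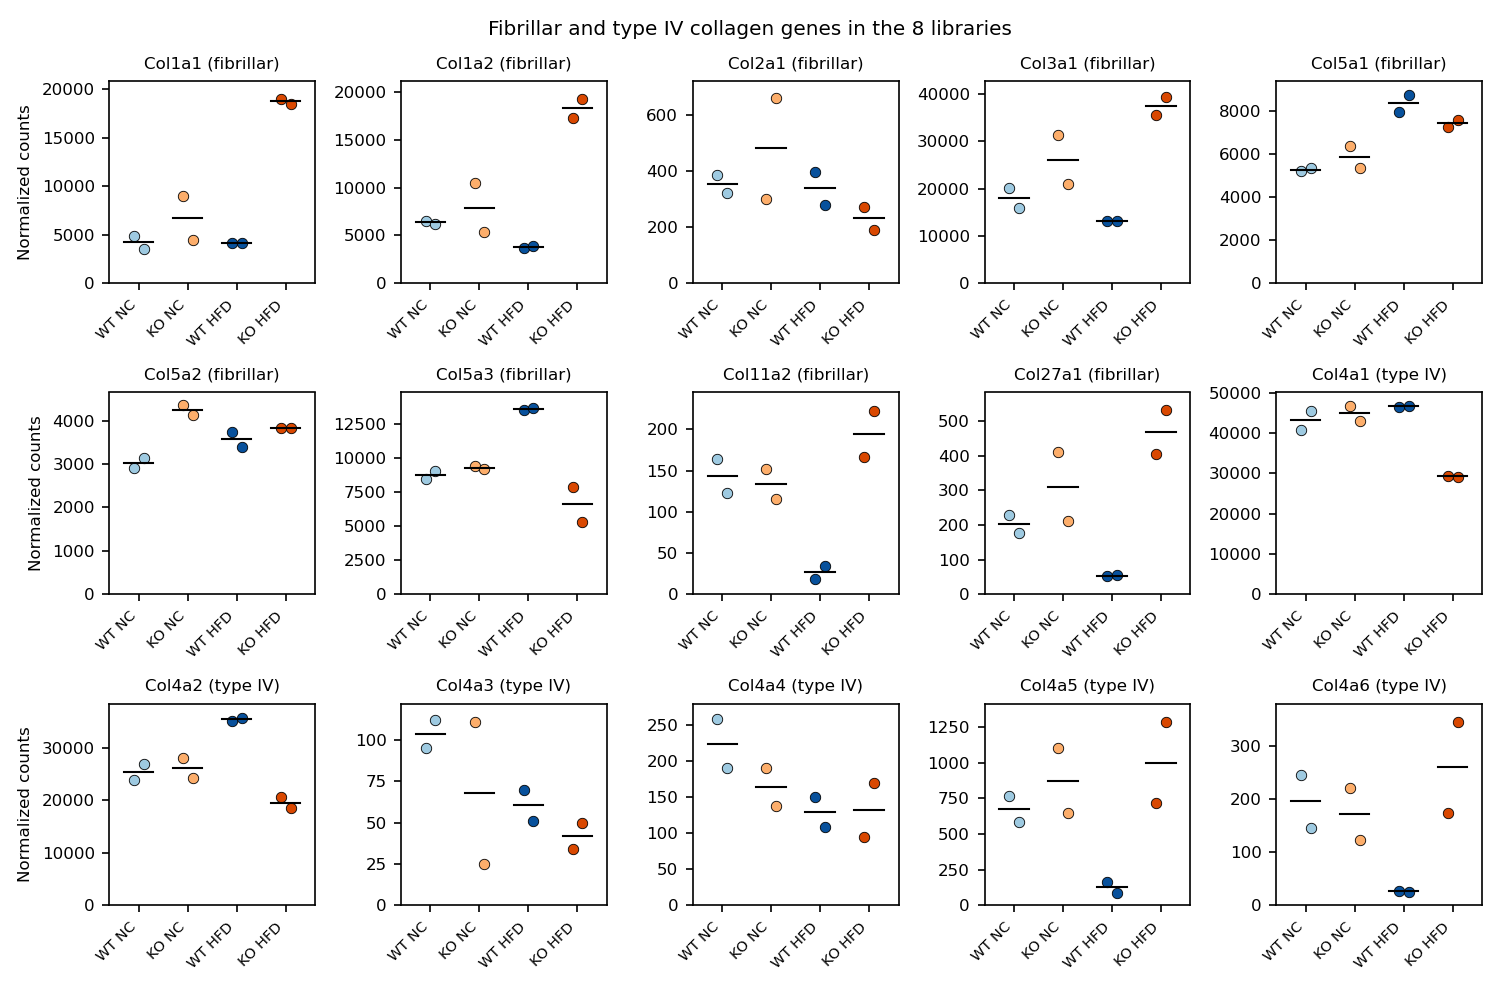
Normalized counts of the 9 tested fibrillar and 6 type IV collagen genes in each library of the 4 groups, with points for libraries and a bar for the mean of each group. Col1a1, Col1a2 and Col3a1 are highest in KO on HFD, Col4a1 and Col4a2 are lowest there, and Col27a1, Col11a2, Col4a5 and Col4a6 are lowest in WT on HFD.

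The 6 type IV genes lie head to head in 3 pairs, and both members of a pair had the same call between genotypes on HFD. Col4a1 and Col4a2, which together make the common form of type IV collagen, start 21 bases apart on chromosome 8. Col4a5 and Col4a6 start 1309 bases apart on chromosome X, and Col4a3 and Col4a4 start 72 bases apart on chromosome 1. The windows of the first 2 pairs are shown because the abundant pair was lower and the X-linked pair higher in KO on HFD. Capitals mark CCAAT, the letters of the CCAAT box, and GGAATG, on either strand. The Col4a2 window covers the annotated starts of both Col4a1 and Col4a2.

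Col4a2 promoter, chr8:11312555-11312854, GRCm38.p6, plus strand: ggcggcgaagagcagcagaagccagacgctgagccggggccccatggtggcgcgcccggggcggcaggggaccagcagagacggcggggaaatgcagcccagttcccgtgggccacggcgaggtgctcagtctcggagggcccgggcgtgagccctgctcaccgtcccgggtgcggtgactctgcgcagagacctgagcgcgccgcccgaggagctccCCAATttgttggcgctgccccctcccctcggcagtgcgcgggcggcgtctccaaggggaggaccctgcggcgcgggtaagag

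Col4a5 promoter, chrX:141475169-141475468, GRCm38.p6, plus strand: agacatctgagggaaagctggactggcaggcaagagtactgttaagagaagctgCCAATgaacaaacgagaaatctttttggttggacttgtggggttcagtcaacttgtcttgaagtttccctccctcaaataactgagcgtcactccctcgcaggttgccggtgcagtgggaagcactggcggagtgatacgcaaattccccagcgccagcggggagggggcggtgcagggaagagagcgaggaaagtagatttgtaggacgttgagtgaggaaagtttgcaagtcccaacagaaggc

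Col4a6 promoter, chrX:141474027-141474326, GRCm38.p6, minus strand: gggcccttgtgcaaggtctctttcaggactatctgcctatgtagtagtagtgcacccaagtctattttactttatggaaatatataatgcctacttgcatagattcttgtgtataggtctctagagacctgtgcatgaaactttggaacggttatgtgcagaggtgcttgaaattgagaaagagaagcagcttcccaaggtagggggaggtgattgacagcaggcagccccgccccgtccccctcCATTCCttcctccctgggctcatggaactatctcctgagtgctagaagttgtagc

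CCAAT was present once in the windows of Col4a2 (position -32) and Col4a5 (position -196), and GGAATG once in that of Col4a6 (position -5). CCAAT was found in 34.2% of the 38 collagen windows and in 37.4% of all windows. The GC box GGGCGG, which was present in all 3 windows shown, was found in 60.5% of the collagen windows and in 35.7% of all windows. TATAAA was in 13.2% and 13.6%.

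Col4a1 (chr8:11198423-11312826, minus strand) had 40791 and 45590 normalized counts in WT on NC, 46790 and 43110 in KO on NC, 46528 and 46829 in WT on HFD, and 29423 and 29173 in KO on HFD. Col4a2 (chr8:11312805-11449287, plus strand) had 23867 and 26971, 27989 and 24269, 35029 and 35719, and 20602 and 18457. In both genes the KO HFD libraries were below the other 6 libraries, with means of 29298 ± 177 and 19529.5 ± 1517 normalized counts (SD, n = 2). Col4a1 was 1.59 times lower in KO on HFD (log2 fold change -0.67, standard error 0.18, adjusted p = 0.012) and Col4a2 1.81 times lower (-0.86, standard error 0.17, adjusted p = 0.0022). Both calls rest on the scaling of the libraries. The log2 fold changes were -0.29 (adjusted p = 0.24) and -0.47 (adjusted p = 0.048, under the limit of 0.59 in size) after scaling each library to one total, and 0.05 (adjusted p = 0.85) and 0.00 (adjusted p = 0.99) with quantile normalization, where Col4a1 changed direction and Col4a2 had none. Per kb, Col4a1 over Col4a2, a ratio within a library that no scaling factor changes, was 1.48 to 1.58 in the 4 NC libraries, 1.18 and 1.16 in WT on HFD, and 1.27 and 1.40 in KO on HFD.

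Col4a5 and Col4a6 encode chains that occur in fewer basement membranes than the common chains. Col4a5 had 763 and 586 normalized counts in WT on NC, 1099 and 643 in KO on NC, 161 and 88 in WT on HFD, and 714 and 1287 in KO on HFD. Col4a6 had 246 and 146, 221 and 123, 27 and 25, and 174 and 347. The pair shared its low group, WT on HFD, which did not overlap any other group, while the KO HFD libraries overlapped both NC groups. On HFD Col4a5 was 7.99-fold higher in KO (log2 fold change 3.0, standard error 0.34, adjusted p = 3.5e-05) and Col4a6 9.15-fold higher (3.19, standard error 0.41, adjusted p = 9.6e-05). Col4a3 had 95 and 112, 111 and 25, 70 and 51, and 34 and 50 normalized counts, and Col4a4 had 258 and 190, 190 and 137, 150 and 109, and 94 and 169. Neither gene of this pair, whose products join Col4a5 in the kidney filter, was called in any comparison. By count, type IV had 2 genes called higher and 2 lower of 6 on HFD, and the fibrillar class 5 higher and 1 lower of 9.

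The multiplexins, basement-membrane zone collagens whose C-terminal ends can be released as endostatin and a related fragment, were both lower in KO on HFD. Col15a1 had 9167 and 10768 normalized counts in WT on NC, 12782 and 11387 in KO on NC, 22113 and 22254 in WT on HFD, and 12938 and 8593 in KO on HFD. Col18a1 had 3267 and 3331, 2337 and 1745, 6299 and 6464, and 3134 and 2963. The WT HFD libraries were above all others in both genes, and for Col18a1 the KO libraries were below the WT libraries on either diet. On HFD Col15a1 was 2.10 times lower in KO (log2 fold change -1.07, standard error 0.20, adjusted p = 0.0012), with -0.50 and adjusted p = 0.054 after quantile normalization. Col18a1 was 2.09 times lower (-1.07, standard error 0.16, adjusted p = 0.0003).

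Col18a1 is the member with GGAATG at more than 1 place. The window is that of the RefSeq start inside the gene, 52843 bases from the start of the gene in the annotation used here, and the second RefSeq window at the outer start held no GGAATG.

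Col18a1 promoter, chr10:77113656-77113955, GRCm38.p6, minus strand: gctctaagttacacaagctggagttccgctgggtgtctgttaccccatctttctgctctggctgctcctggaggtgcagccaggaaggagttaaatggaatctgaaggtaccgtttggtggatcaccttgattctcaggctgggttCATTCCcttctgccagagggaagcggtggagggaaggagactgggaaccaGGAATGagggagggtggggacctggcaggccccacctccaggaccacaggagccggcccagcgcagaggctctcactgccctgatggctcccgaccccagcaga

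Its matches lie at positions -104 and -54, on opposite strands. The deposited counts are per gene, so they do not tell from which of these starts the Col18a1 RNA came.

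The largest log2 fold change of a collagen gene between genotypes on HFD was that of a type VI gene. Col6a5 and Col6a6, which encode long alternative chains that can take the place of the third chain of type VI, lie next to each other on chromosome 9 on the same strand. Col6a5 had 4107 and 4446 normalized counts in WT on NC, 8540 and 6054 in KO on NC, 784 and 882 in WT on HFD, and 13956 and 20276 in KO on HFD. Col6a6 had 1466 and 1485, 2279 and 1881, 344 and 320, and 2826 and 4129. The groups followed the same order in both genes, with WT on HFD lowest, then WT on NC, KO on NC and KO on HFD, and no group overlapped another. On HFD Col6a5 was 20.2-fold higher in KO (log2 fold change 4.34, standard error 0.20, adjusted p = 3.3e-08) and Col6a6 10.3-fold higher (3.36, standard error 0.19, adjusted p = 1.2e-07). Col6a4, the third of these chains on chromosome 9, had 0 to 15 normalized counts, was at 0 in both WT HFD libraries and was not called.

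The core chains of type VI differed less. Col6a3 had 6752 and 6153 normalized counts in WT on NC, 13300 and 9256 in KO on NC, 7741 and 7951 in WT on HFD, and 14936 and 14930 in KO on HFD. It was 1.90-fold higher in KO on HFD (log2 fold change 0.93, standard error 0.18, adjusted p = 0.0016), and the KO libraries were above the WT libraries on both diets. Col6a1 had 5974 and 5766, 7885 and 5063, 13782 and 13346, and 11579 and 12655 normalized counts, and Col6a2 had 4733 and 4508, 7133 and 4151, 10463 and 10384, and 10666 and 10432. These 2 genes, neighbours on chromosome 10, were higher in every HFD library than in every NC library. Neither was called between genotypes on HFD, although the WT libraries of Col6a1 lay above its KO libraries there, with log2 fold changes between genotypes on HFD of -0.16 (adjusted p = 0.54) and 0.02 (adjusted p = 0.96). Per kb, Col6a5 stood to Col6a3 as 0.773 to 0.918 in the 4 NC libraries, as 0.129 and 0.141 in WT on HFD, and as 1.19 and 1.73 in KO on HFD.

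Col12a1, a FACIT that links fibrils to surrounding matrix, went against most other genes. It had 196 and 183 normalized counts in WT on NC, 162 and 136 in KO on NC, 1623 and 1505 in WT on HFD, and 216 and 276 in KO on HFD. WT on HFD was the high group and lay far outside the range of the other 6 libraries, which was 136 to 276. On HFD the gene was 6.38 times lower in KO (log2 fold change -2.67, standard error 0.22, adjusted p = 2e-06). Col14a1, another FACIT on fibril surfaces, had 384 and 302, 303 and 244, 282 and 250, and 355 and 610 normalized counts and was 1.75-fold higher in KO on HFD (0.81, standard error 0.27, adjusted p = 0.034), a call lost without replicate 2 of KO on HFD, without either WT HFD library, with no filter and with only the compared groups fitted. Col20a1 had 105 and 89, 77 and 28, 24 and 14, and 75 and 131, and was 5.17-fold higher (2.37, standard error 0.54, adjusted p = 0.0048), a call lost without replicate 2 of KO on HFD or replicate 2 of WT on HFD. Col9a3 (16 to 143 normalized counts) and Col16a1 (94 to 245) were not called.

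Of the remaining classes, Col7a1, the anchoring fibril collagen of skin, was low but separated. It had 43 and 34 normalized counts in WT on NC, 49 and 39 in KO on NC, 13 and 6 in WT on HFD, and 91 and 90 in KO on HFD, and was 9.24-fold higher in KO on HFD (log2 fold change 3.21, standard error 0.53, adjusted p = 0.00063). Col23a1, a transmembrane collagen, had 524 and 577, 406 and 352, 240 and 241, and 470 and 660, and was 2.31-fold higher (1.21, standard error 0.21, adjusted p = 0.00093). Col28a1 had 373 and 305, 363 and 240, 88 and 104, and 245 and 222, and was 2.42-fold higher (1.28, standard error 0.27, adjusted p = 0.0028). In each of these 3 genes the WT HFD libraries were the lowest of the 8. Col8a1, a short-chain network collagen, had 256 and 279, 247 and 103, 107 and 98, and 160 and 266 and did not pass on HFD (1.00, standard error 0.38, adjusted p = 0.057). The other 5 tested genes of types VIII and X and of the transmembrane class did not exceed 117 normalized counts in any library and were called in no comparison. Col9a1, Col9a2, Col19a1, Col22a1 and Col26a1 had means of 0.25 to 4.12 normalized counts and were not tested.

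**Figure D3:**
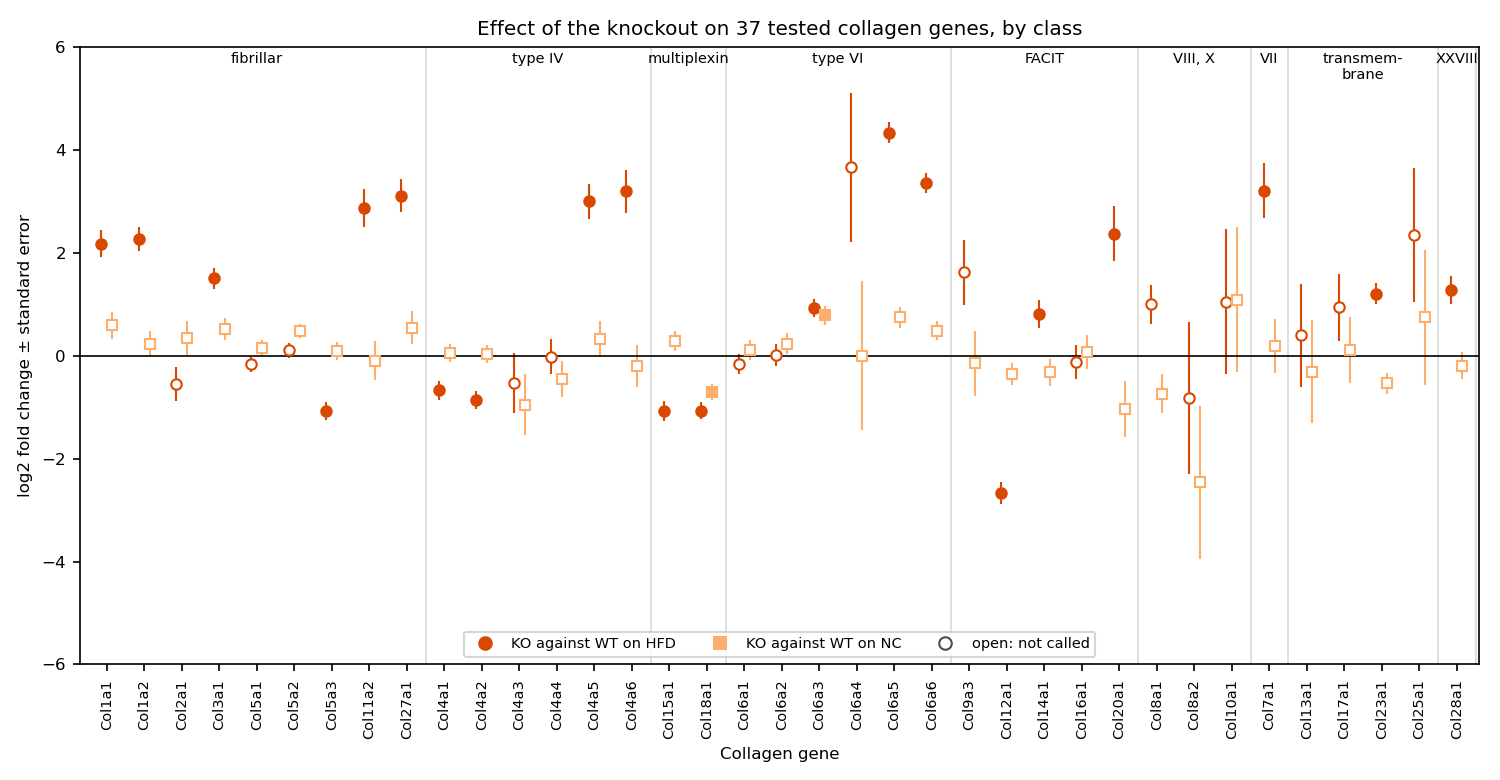
Log2 fold change of KO against WT with its standard error for the 37 tested collagen genes, ordered by class, on HFD (circles) and on NC (squares), with filled symbols for called genes. On HFD 15 genes are called higher and 6 lower, and on NC Col6a3 is called higher and Col18a1 lower. The fitted values of Col6a4 and Col25a1, at 0 in both WT HFD libraries, are no bounds.

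On NC, Col6a3 was called higher and Col18a1 lower in KO. Of the 37 genes 1 was thus called higher and 1 lower, beside 3.21% and 1.5% of all genes tested (4.71% in all), so that the share among collagen genes was near that of all genes, and the median log2 fold change was 0.09 beside -0.01. Col6a3 was 1.72-fold higher in KO (log2 fold change 0.78, standard error 0.18, adjusted p = 0.022), and Col18a1 was 1.63 times lower (-0.71, standard error 0.16, adjusted p = 0.022). No fibrillar and no type IV gene was called, the fibrillar log2 fold changes being largest for Col1a1 (0.60, standard error 0.26, adjusted p = 0.27). Limma called none of the 37 with the WT HFD pair averaged, where 6 had an unadjusted p under 0.05. None was called either when any 1 of the WT libraries was left out (4 to 6 with an unadjusted p under 0.05), 1 without replicate 1 of KO on NC, 3 without either library of KO on HFD, and 4 without replicate 2 of KO on NC, when Col1a1, Col1a2 and Col6a5 were added and Col18a1 was lost.

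In WT mice more collagen genes were lower than higher on HFD. Of 37 genes 7 were called higher and 12 lower on HFD than on NC, beside 8.74% and 9.22% of all genes tested (18% in all), and the median log2 fold change was -0.45 beside -0.08 (-0.42 with Col6a4 and Col25a1 set to the level of 3 reads per library). Those called higher were 2 of the 3 core type VI genes, both multiplexins, Col5a1, Col5a3 and Col12a1. Col6a1 rose 2.31-fold (log2 fold change 1.21, standard error 0.19, adjusted p = 0.0018) and Col6a2 2.26-fold (adjusted p = 0.0035), while Col6a3 did not pass (0.28, adjusted p = 0.27). Col15a1 rose 2.23-fold (adjusted p = 0.0026) and Col18a1 1.93-fold (adjusted p = 0.0025). Among fibrillar genes Col5a1 rose 1.58-fold (adjusted p = 0.010) and Col5a3 1.56-fold (adjusted p = 0.028). Both of these calls were lost with the same total per library and with quantile normalization. Their log2 fold changes were as low as 0.25 and 0.22 among the alternatives. Col12a1 rose 8.21-fold (log2 fold change 3.04, standard error 0.22, adjusted p = 2.4e-05), the largest rise.

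The genes that fell on HFD in WT included both X-linked type IV genes, by 5.58 times for Col4a5 (log2 fold change -2.48, standard error 0.34, adjusted p = 0.00081) and 7.06 times for Col4a6 (-2.82, standard error 0.41, adjusted p = 0.0011). Col6a5 fell 5.13 times (adjusted p = 4.8e-05) and Col6a6 4.44 times (adjusted p = 5.1e-05). The low fibrillar genes Col11a2 and Col27a1 fell 5.41 and 3.75 times (adjusted p = 0.0015 and 0.0025), and Col1a2 fell 1.68 times (log2 fold change -0.75, standard error 0.24, adjusted p = 0.046), a call lost under 8 of 19 alternatives, among them leaving out any 1 of the 4 libraries compared. Col20a1, Col7a1, Col28a1, Col8a1 and Col23a1 fell 2.28 to 5.04 times, with adjusted p between 0.0012 and 0.025. Col1a1 (log2 fold change -0.00, adjusted p = 1) and Col3a1 (-0.45, adjusted p = 0.14) were not called. Col4a1 and Col4a2 were not called either, with 0.11 (adjusted p = 0.69) and 0.48 (adjusted p = 0.068).

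With the WT HFD pair averaged 9 of these 19 calls were kept, which were the rises of Col12a1 and Col6a1 and the falls of Col11a2, Col27a1, Col28a1, Col4a5, Col4a6, Col6a5 and Col6a6. Without replicate 1 of WT on NC 11 were called. Scaling each library to one total moved the split to 4 higher and 14 lower, since it shifts the median of all genes by -0.40 on the log2 scale in this comparison, by 0.37 in KO against WT on HFD and by 0.42 in the interaction, while on NC and in KO it moved by no more than 0.04 in size. Under that scaling KO against WT on HFD had 17 higher and 4 lower, and with quantile normalization 15 higher and 2 lower.

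In KO mice the genes called between diets were chains of types I and VI. Of 37 genes 4 were called higher and 0 lower, beside 0.383% and 0.691% of all genes tested (1.07% in all), and the median log2 fold change was 0.57 beside 0.03. Limma gave 17 of the 37 an unadjusted p under 0.05. Col1a1 rose 2.98-fold (log2 fold change 1.57, standard error 0.26, adjusted p = 0.016), Col1a2 2.44-fold (1.29, standard error 0.24, adjusted p = 0.027), Col6a5 2.34-fold (1.23, standard error 0.20, adjusted p = 0.016) and Col6a1 1.92-fold (0.94, standard error 0.19, adjusted p = 0.040). No type IV gene was called, with log2 fold changes of -0.62 for Col4a1 (adjusted p = 0.12) and -0.42 for Col4a2 (adjusted p = 0.27). These 4 calls were lost with the WT HFD pair averaged, although those libraries enter here through the shared spread alone (15 genes with an unadjusted p under 0.05). They were also lost without replicate 2 of KO on NC, replicate 2 of KO on HFD or either WT HFD library (9 to 15), 2 remained without either WT NC library, and 10 and 7 genes were called without replicate 1 of KO on NC and replicate 1 of KO on HFD.

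**Figure D4:**
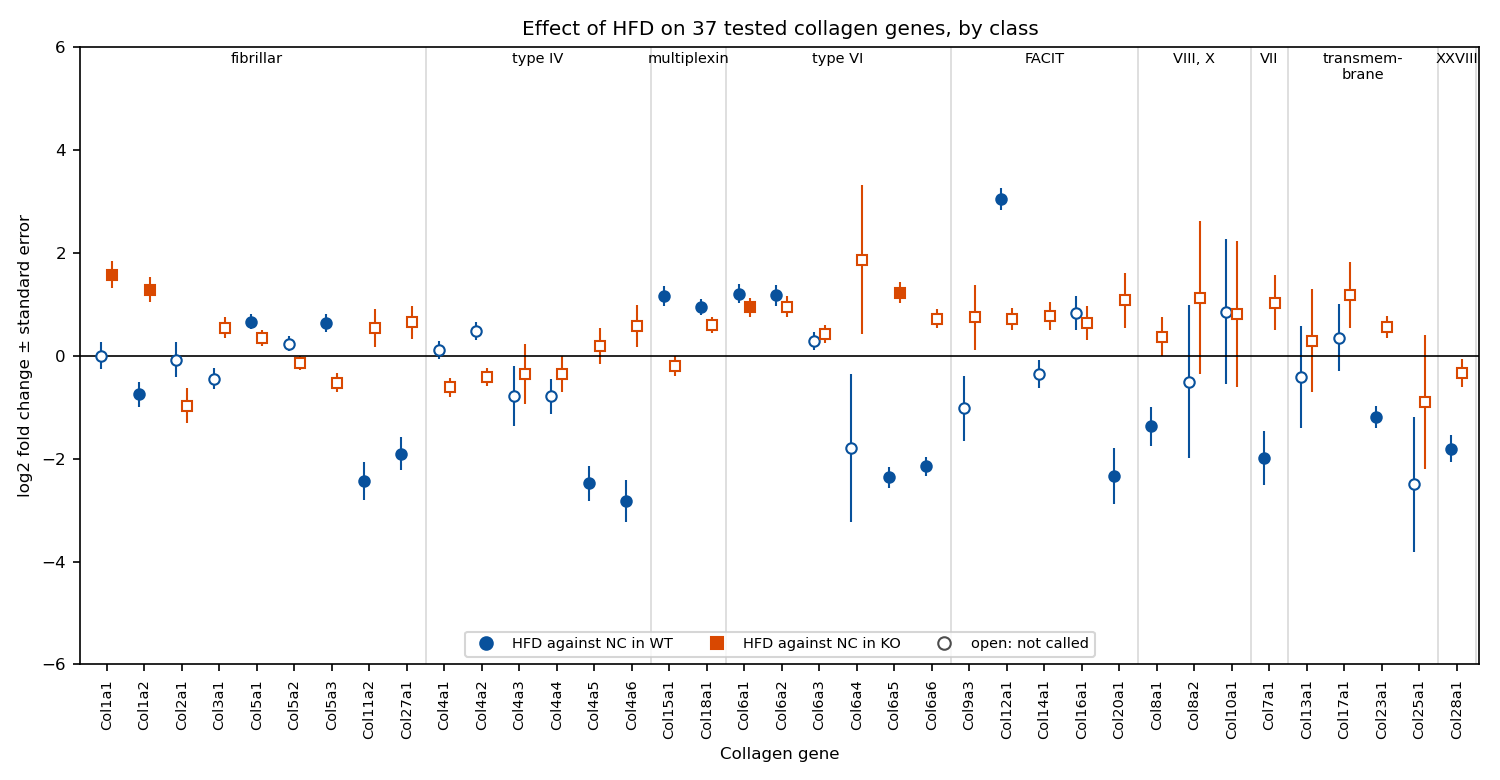
Log2 fold change of HFD against NC with its standard error for the same 37 genes, in WT (circles) and in KO (squares), with filled symbols for called genes. In WT 7 genes are called higher and 12 lower, and in KO Col1a1, Col1a2, Col6a1 and Col6a5 are called higher. The fitted values of Col6a4 and Col25a1 are no bounds.

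The difference itself was tested by the interaction. Of the 37 genes 14 had a called positive and 4 a called negative interaction, beside 8.69% and 8.73% of all genes tested (17.4% in all), with a median of 0.99 on the log2 scale beside 0.10 (0.83 with Col6a4 and Col25a1 set to the level of 3 reads per library). The positive ones included 5 of 9 fibrillar genes, with 2.04 for Col1a2 (standard error 0.34, adjusted p = 0.0045) and 1.58 for Col1a1 (0.37, adjusted p = 0.015). Type IV was split, with 2.67 for Col4a5 (standard error 0.48, adjusted p = 0.0060), 3.39 for Col4a6 (0.58, adjusted p = 0.0050) and -0.90 for Col4a2 (0.24, adjusted p = 0.026). The call of Col4a2 was lost under 9 of 18 alternatives, among them quantile normalization, the same total per library, the replicate block and leaving out any 1 of the 4 WT libraries. With the WT HFD pair averaged 8 positive and 1 negative interactions were called, those of Col1a1, Col3a1, Col7a1, Col8a1, Col20a1, Col28a1, Col4a2, Col5a3 and Col15a1 being lost. Without replicate 1 of WT on NC the count was 8, and without replicate 1 or 2 of WT on HFD it was 11 or 9.

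Across both comparisons that use WT on HFD, 11 genes were called lower on HFD in WT and higher in KO than in WT on HFD, namely Col1a2, Col11a2, Col27a1, Col4a5, Col4a6, Col6a5, Col6a6, Col7a1, Col20a1, Col23a1 and Col28a1. The opposite was called for 4 genes, Col5a3, Col12a1, Col15a1 and Col18a1. Because both comparisons share the WT HFD libraries, values of that 1 group enter each call of the pattern, and the counts are a description. How common either pattern is among all genes was not computed, so the counts do not set collagen genes apart. In all, 25 of the 37 tested genes were called in at least 1 comparison and 12 in none. The share of all genes called in at least 1 comparison was not computed, so these counts cannot be set against it.

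Genes that modify, cleave and cross-link collagen were called in both directions. Of 34 tested processing genes 10 were called higher and 9 lower in KO on HFD, beside 17.1% and 15.1% of all genes. Pcolce, which enhances the removal of the C-terminal propeptide from fibrillar procollagen, had 363 and 313 normalized counts in WT on NC, 450 and 205 in KO on NC, 186 and 152 in WT on HFD, and 790 and 929 in KO on HFD (log2 fold change on HFD 2.34, standard error 0.31, adjusted p = 0.00011). Its relative Pcolce2 had 28 and 47, 44 and 33, 292 and 338, and 96 and 87 and was lower in KO on HFD (-1.77, standard error 0.38, adjusted p = 0.0034). The enhancer genes were thus on opposite sides. Adamts14, a procollagen N-proteinase, was higher (2.72, standard error 0.40, adjusted p = 0.00026), as was Loxl3, of the lysyl oxidase family (1.91, standard error 0.38, adjusted p = 0.0022).

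On NC, 1 processing gene was called higher in KO and 2 lower (8.82% of 34, beside 4.71% of all genes). Colgalt1, a collagen galactosyltransferase, was higher (log2 fold change 0.74, standard error 0.16, adjusted p = 0.017), whereas Tmem38b (-0.94, standard error 0.22, adjusted p = 0.024) and Creb3l1, a transcription factor of the secretory pathway that acts on type I collagen genes (-0.92, standard error 0.19, adjusted p = 0.013), were lower. Between diets 9 processing genes were called higher and 5 lower on HFD in WT (41.2% of 34, beside 18% of all genes). Pcolce2 rose (log2 fold change 3.08, standard error 0.38, adjusted p = 0.00046), while P3h4, of the prolyl 3-hydroxylase family by name, fell (-1.85, standard error 0.46, adjusted p = 0.016), as did Tll1, a relative of the procollagen C-proteinase Bmp1 (-1.27, standard error 0.35, adjusted p = 0.024). In KO 2 were called higher on HFD (5.88%, beside 1.07% of all genes), which were Pcolce (1.49, standard error 0.31, adjusted p = 0.041) and Lox. Lox, the main enzyme that starts collagen cross-links, had 757 and 853 normalized counts in WT on NC, 906 and 719 in KO on NC, 2280 and 2193 in WT on HFD, and 1749 and 2178 in KO on HFD. All 4 HFD libraries lay above all 4 NC libraries for Lox, with a log2 fold change of 1.47 in WT (standard error 0.17, adjusted p = 0.00032) and 1.27 in KO (0.17, adjusted p = 0.0068). The interaction was called positive for 7 processing genes and negative for 4 (32.4%, beside 17.4% of all genes), with 2.49 for Pcolce (adjusted p = 0.0053), 2.32 for P3h4 (adjusted p = 0.030), 2.20 for Adamts14 (adjusted p = 0.021) and -1.84 for Pcolce2 (adjusted p = 0.035).

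Of 10 collagen receptor genes 3 were called higher and 1 lower in KO on HFD, and this share of 40% was close to the 32.2% of all genes. On NC 1 was called higher and 2 lower (30%, beside 4.71% of all genes). Ddr1, a receptor tyrosine kinase for collagen, had 865 and 1371 normalized counts in WT on NC, 506 and 646 in KO on NC, 3046 and 3275 in WT on HFD, and 414 and 333 in KO on HFD. It was lower in KO on both diets, by a log2 fold change of -3.09 on HFD (standard error 0.22, adjusted p = 8.5e-07) and -0.93 on NC (0.22, adjusted p = 0.031), and rose on HFD in WT (1.53, standard error 0.22, adjusted p = 0.0011). Ddr2, its counterpart in mesenchymal cells, was higher in KO on HFD (0.78, standard error 0.18, adjusted p = 0.0060), as was Itga11, an integrin chain for fibrillar collagen (1.91, standard error 0.35, adjusted p = 0.0012). Lair1, an inhibitory collagen receptor of leukocytes, had 32 and 36, 322 and 180, 20 and 32, and 654 and 444 normalized counts and was higher in KO on HFD (4.36, standard error 0.39, adjusted p = 4.3e-06) and on NC (2.79, standard error 0.39, adjusted p = 0.00082). Itga1 was lower in KO on NC (-0.64, standard error 0.17, adjusted p = 0.046). Mrc2, an endocytic receptor for collagen, was higher on HFD in WT (0.98, standard error 0.26, adjusted p = 0.021) and in KO (1.45, standard error 0.26, adjusted p = 0.021). In the interaction 1 of the 10 receptor genes was called (10%, beside 17.4% of all genes), which was Ddr1 (-2.16, standard error 0.31, adjusted p = 0.0029).

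The summed levels of the fibroblast and progenitor markers and of the macrophage markers were, as for Col1a2, highest in both libraries of KO on HFD and lowest in both of WT on HFD. The 11 fibroblast and progenitor markers summed to 13805 and 12874 normalized counts in WT on NC, 16145 and 11517 in KO on NC, 10042 and 10170 in WT on HFD, and 22554 and 26138 in KO on HFD, so that the NC libraries of the genotypes overlapped. In KO against WT on HFD 7 of the 11 were called higher and 1 (Cd55) lower, beside 32.2% of all genes in both directions, among them Pdgfra (log2 fold change 2.96, standard error 0.22, adjusted p = 1.2e-06), Lum (2.57, standard error 0.27, adjusted p = 1.9e-05) and Dcn (1.73, standard error 0.20, adjusted p = 4.2e-05). On HFD in WT 2 were called higher and 5 lower, beside 18% of all genes, and Dpt, 1 of the higher ones (log2 fold change 1.49, standard error 0.21, adjusted p = 0.00093), went against the sum of the list. None of the 11 was at 0 in any library, and their part in the collagen results was not tested.

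The 8 macrophage markers summed to 4561 and 4535, 29864 and 16907, 2107 and 2159, and 33183 and 30012 normalized counts, and all 8 were called higher in KO on both diets, beside 17.1% of all genes on HFD and 3.21% on NC. On HFD in WT all 8 were called lower, beside 9.22% of all genes. The part of the macrophage markers in the collagen results was not tested. The 10 adipocyte markers summed to 320913 and 330828, 273319 and 360809, 424899 and 415966, and 207613 and 110567, and 9 of the 10, including Adipoq (log2 fold change -1.50, standard error 0.29, adjusted p = 0.0017) and Lep (-4.45, standard error 0.52, adjusted p = 4e-05), were lower in KO on HFD, beside 15.1% of all genes. Adipocyte markers were thus present in every library, and their sum was highest in WT on HFD and lowest in KO on HFD. Col4a2 and Col5a3 had the same extremes. Col4a1, Col12a1, Col15a1 and Col18a1, also called lower in KO on HFD, did not share both extremes in every library. The single adipocyte markers differed from their sum. On HFD in WT, where 18% of all genes were called, 2 were called higher and 1 lower, Cfd (-1.36, standard error 0.20, adjusted p = 0.0011). The part of the adipocyte markers in the collagen results was not tested. The 7 endothelial markers, of cells that also make type IV collagen, summed to 30074 and 24883, 23747 and 13018, 15344 and 15705, and 20308 and 31107, with 3 called higher in KO on HFD, beside 17.1% of all genes, and 3 called lower on HFD in WT, beside 9.22%. The 6 mural markers summed to 8681 to 16328, with 2 called higher and 2 lower in KO on HFD, beside 32.2% of all genes. Mesothelial (5 markers, 167 to 673, with 1 called higher and 1 lower in KO on HFD, beside 32.2% of all genes), Schwann (4 markers, 299 to 755) and lymphocyte markers (7 markers, 17 to 122, with up to 4 at 0 in a library) were low.

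**Figure D5:**
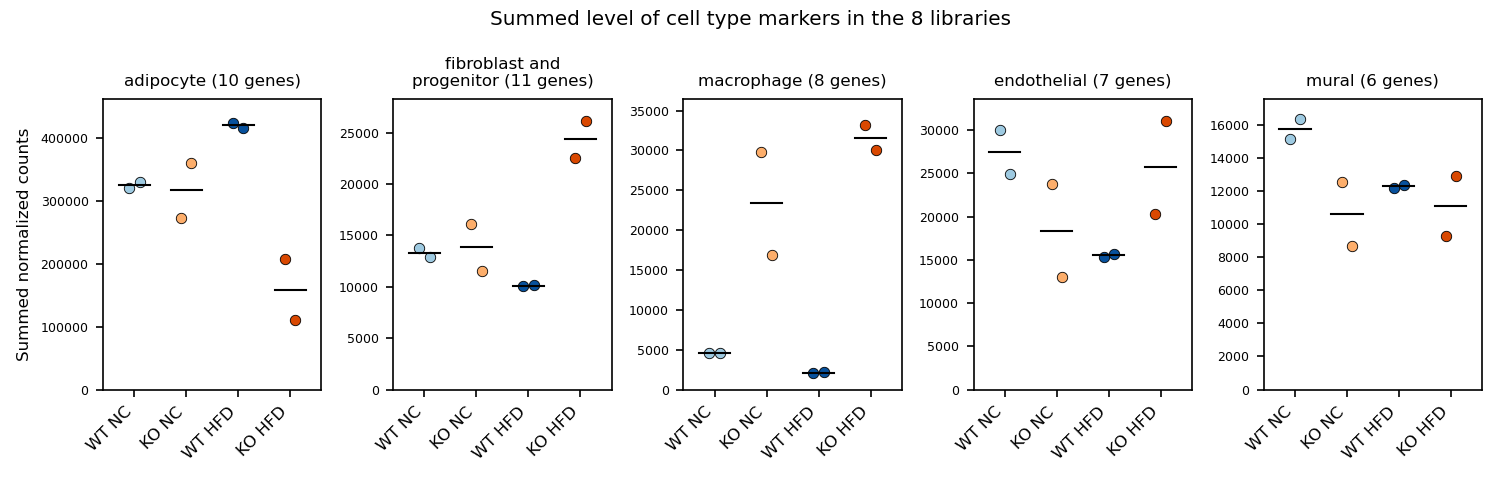
Summed normalized counts of the markers of 5 cell types in each library, with points for libraries and a bar for the mean of each group. Fibroblast and progenitor markers are highest in KO on HFD (22554 and 26138) and lowest in WT on HFD (10042 and 10170), and the sum of the adipocyte markers is highest in WT on HFD and lowest in KO on HFD.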

How the data were processed

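The deposited table holds 1 value per gene and library. Per the labels and the study's methods, the authors depleted ribosomal RNA, made stranded libraries, aligned reads with STAR 2.5.2b to mm10 (GRCm38), counted reads on exons with featureCounts 1.5.1 and normalized with DESeq2 1.14.1. Whether counting used strand is not given in the sources used here. The deposited values are whole numbers, a score in the sense of counts scaled by a size factor and rounded, so no count model was used, and the depth given here was estimated from the step between low values. Precision is limited by 2 libraries per group.

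From these values, genes with a mean of at least 5 were fitted as log2(value + 1) with limma 3.58.1 in R 4.3.3 (trend, 4 group means, 4 residual degrees of freedom, Benjamini-Hochberg over 18800 genes). A fold change on this scale understates changes of low genes. The SD and n = 2 are over libraries, and p-values measure the spread between them. Per kb levels used exon unions of GENCODE vM21, in which 30259 of the 30387 IDs were found. Promoters came from RefSeq (GRCm38.p6), and 35 of 44 members matched. The CCAAT, TATA and GC letters were chosen after the data were seen.

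The collagen family as subject, the gene lists and the rule for named genes were chosen with earlier results of these data known. The rule names every tested fibrillar and type IV gene, every other member called in at least 1 comparison or among the 10 with the highest means, and from the processing and receptor lists up to 4 called genes of largest change per comparison. Exons shared with other genes covered at most 6.07% of a member's exon bases (Col9a3 with Tcfl5 on the opposite strand), and reads there may be uncertain. Alternatives changed the pseudocount, filter, scaling, libraries, replicate block and limits.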

Additional observations from a re-analysis of the deposited data

Results flagged for a closer look

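The effect of the knockout differed between NC and HFD, by a called interaction, for 18 collagen genes. On the log2 scale it was positive for Col6a5 (3.59), Col20a1 (3.41), Col4a6 (3.39), Col7a1 (3.02), Col11a2 (2.97), Col6a6 (2.87), Col4a5 (2.67), Col27a1 (2.56), Col1a2 (2.04), Col23a1 (1.75), Col8a1 (1.74), Col1a1 (1.58), Col28a1 (1.47) and Col3a1 (0.99). It was negative for Col12a1 (-2.32), Col15a1 (-1.35), Col5a3 (-1.16) and Col4a2 (-0.90). The WT HFD libraries were the lowest of the 8 in the positive genes other than Col1a1 and Col8a1, and the highest of the 8 in the 4 negative genes. The interaction was also called positive for 8 of 8 macrophage and 6 of 7 endothelial markers, beside 8.69% of all genes. Of 11 fibroblast and progenitor markers 7 were called positive and 2 negative, and of 6 mural markers 2 and 1. Of 10 adipocyte markers 8 were called negative, beside 8.73% of all genes. The part of these markers in the collagen interactions was not tested.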

How the results depend on the processing

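Of 64 called results of single collagen genes, 33 lost their call under at least 1 of 19 alternatives to the fit and 31 lost it under none that gave them a value. Col4a1 and Col4a2 in KO against WT on HFD went to 0.05 and 0.00 on the log2 scale with quantile normalization, and the cause was not tested. The count for KO against WT on HFD stayed at 17 to 23 (18 to 23 with 1 library left out). For KO against WT on NC the count of 2 became 0 with no filter (8 with an unadjusted p under 0.05 by limma), with only the compared groups fitted (6), with the WT HFD pair averaged (6) and with a limit of 1 on the log2 scale, and 1 with the same total per library, and it ranged from 0 to 4 with 1 library left out. For HFD against NC in WT the count of 19 became 9 with the WT HFD pair averaged, and it ranged from 11 to 20 with 1 library left out. For HFD against NC in KO the count of 4 became 2 with a pseudocount of 0.1 and 0 with no filter (17), with only the compared groups fitted (12) or with the WT HFD pair averaged (15), and it ranged from 0 to 10 with 1 library left out. For the interaction the count of 18 became 8 with no filter and 9 with the WT HFD pair averaged, and it ranged from 8 to 20. With no filter 30387 genes are adjusted over in place of 18800. The differences between replicates 1 and 2 did not go together across the 4 groups (correlations of -0.107 to 0.0397 between pairs of groups over 18800 genes). The replicate block gave 21, 2, 18, 3 and 15 calls in the order above. In Col6a4, Col8a2, Col10a1, Col13a1 and Col25a1, with at most 24 normalized counts, standard errors were 0.997 to 2.10 on the log2 scale, and smaller differences were not detectable at this depth. A crossed pairing of the KO libraries, added after seeing the data, gave 7 calls for HFD against NC in KO.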
